A study of Mus musculus with 6 samples.

Results

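The genes examined were 33 genes of proximal T cell receptor signalling. Most belong to the steps between the receptor and the first second messengers, and some, such as Prkcq, act after those messengers. By role there were 5 receptor chains or coreceptors, 5 kinases, 8 adaptors or exchange factors, 8 effectors and 7 inhibitors. They were taken by name from the 17369 gene columns of the deposited single-cell table, and all 33 were expressed highly enough to be tested. Mouse naive CD4 T cells isolated from spleen had been polarized for 48 h toward the T helper 9 (Th9) fate, named for the cytokine IL-9, with 3 ng/ml human TGFβ, 20 ng/ml IL-4 and 20 µg/ml of an antibody against IFNγ, and were then purified on CD4 MicroBeads. Wild-type control cells and Cblb-/- cells had this same treatment, and 3 samples of each genotype were sequenced with 10x Genomics 3′ v3 chemistry. The labels give no strain, age or sex, and what was removed from Cblb is not described in them. Nor do they tell if a genotype's samples were different mice or different cultures. The p-values are therefore set against a spread between samples that may be only technical.

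When a T cell receptor binds its ligand, the Src-family kinases Lck and Fyn phosphorylate the CD3 and zeta chains, which recruit the kinase Zap70. Zap70 phosphorylates the adaptors Lat and Lcp2 (SLP-76), and these assemble Plcg1, Vav1, Grb2 and their partners into a complex that starts calcium, diacylglycerol, Ras and actin signals. Diacylglycerol kinases, the phosphatase-like Ubash3 (Sts) proteins and SLAP adaptors hold these signals down. The ubiquitin ligase CBL-B, encoded by Cblb, is a brake on the same steps.

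Because the table identifies its libraries by sequencing index and genotype only, letters are used for them: A to C for wild type and D to F for knockout. They held 3423 to 5666 cells, 27258 in all, with a median of 35573 to 39628 raw unique molecular identifiers (UMIs) per cell. Cblb itself stood at 32.6, 31.1 and 30.9 ppm in the wild-type libraries and at 18.4, 15.0 and 17.99 ppm in the knockout libraries, a log2 difference of -0.85, where ppm is a gene's share of the library's summed corrected counts per 1000000. All knockout libraries were below all wild-type libraries for Cblb. A 3′ tag outside the deleted part cannot check the deletion. Cd3d had a value of at least 1 in 99.99% of cells and Cd4 in 93.59%. Of the CD8 T cell markers, Cd8a stayed at or below 0.26 ppm in every library. Cd8b1 was at 5.61 to 7.11 ppm in wild-type and 10.04 to 10.9 ppm in knockout libraries, with a value of at least 1 in 21.1% of cells (log2 difference 0.64, adjusted p = 0.0029 by limma). The 7 measured myeloid markers summed to 83.4 to 87.5 ppm in wild-type and 114 to 167 ppm in knockout libraries, nearly all of it Cst3, while Csf1r was at most 0.0539 ppm. The 7 B cell markers summed to 27.1 to 28.7 and 29.8 to 35.1 ppm. Most of this was Ighm, at 20.2 to 24.4 ppm. Cd79b was at 2.38 to 3.09 ppm in wild-type and 4.80 to 8.76 ppm in knockout libraries, and Ebf1 at 0.68 to 0.84 and 2.44 to 4.42 ppm. Natural killer, mast cell or basophil, and erythroid or platelet markers summed to at most 1.29, 4.63 and 1.96 ppm. The genotypes also differed in the make-up of the authors' clusters: cluster 0 held 31.4% to 32.0% of wild-type and 46.6% to 55.1% of knockout cells, cluster 1 held 43.1% to 46.1% and 17.5% to 31.1%, and cluster 2 held 3.86% to 5.87% and 10.1% to 17.97%. The part of these differences in the results over all cells was not tested, except where values within a cluster are given.

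The 3 CD3 genes lie side by side on chromosome 9, and Cd3e was the one of them called over all cells, so the DNA before their start sites is shown. Cd3g (chr9:44969572-44980431, minus strand) and Cd3d (chr9:44981786-44987339, plus strand) are transcribed away from each other from start sites 1355 bases apart, and Cd3e (chr9:44998740-45009627, minus strand) follows beyond Cd3d, in mm10 with the GENCODE M21 annotation. Each line gives 200 bases, 5′ to 3′ on the gene's strand, from 250 to 51 bases before the RefSeq start (build GRCm38.p6), namely chr9:44980482-44980681 for Cd3g, chr9:44981536-44981735 for Cd3d and chr9:45009662-45009861 for Cd3e. Capitals mark GGAAG on either strand (the core of ETS sites, CTTCC on the other strand) and CANNTG (the E-box).
Cd3g: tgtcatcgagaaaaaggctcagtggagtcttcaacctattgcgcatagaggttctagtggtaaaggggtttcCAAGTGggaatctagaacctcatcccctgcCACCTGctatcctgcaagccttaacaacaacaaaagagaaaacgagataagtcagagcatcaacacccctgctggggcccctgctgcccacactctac
Cd3d: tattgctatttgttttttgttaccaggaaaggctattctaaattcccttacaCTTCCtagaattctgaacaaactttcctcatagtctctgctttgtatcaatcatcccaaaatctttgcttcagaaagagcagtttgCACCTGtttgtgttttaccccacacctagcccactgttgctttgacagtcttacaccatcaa
Cd3e: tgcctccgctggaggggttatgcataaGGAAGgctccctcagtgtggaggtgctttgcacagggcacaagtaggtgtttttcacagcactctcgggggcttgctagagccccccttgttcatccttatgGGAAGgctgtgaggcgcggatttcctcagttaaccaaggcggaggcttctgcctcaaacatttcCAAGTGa
GGAAG was found 0 times for Cd3g, 1 time for Cd3d and 2 times for Cd3e, and 55.0% of 32851 windows of this length before RefSeq starts held it on either strand. CANNTG was found 2, 1 and 1 times, and 59.0% of the windows held it. None of the 3 windows held TGTGGT, a RUNX motif that 11.6% of windows held on either strand, or TATAAA, which 9.14% held. Since the windows stop 51 bases before the start, they cannot show whether a TATA box lies nearer to it. G and C made up 50% of the Cd3g window, 38.5% for Cd3d and 55.0% for Cd3e. A match describes letters only.

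Over all cells, 2 of the 33 genes were higher and 9 were lower in Cblb-/- libraries (limma on log2(ppm + 1), adjusted p under 0.05 after Benjamini-Hochberg adjustment over 8475 genes). Of all genes tested, 24.4% were called, 11% higher and 13.4% lower. The rises were in Themis and Ubash3b. The falls were in Cd3e, Cd4, Plcg1, Pik3cd, Rap1a, Dgka, Dgkz, Ubash3a and Sh3kbp1, by 0.15 to 0.36 on the log2 scale. The median log2 difference of the 33 genes was -0.06, against -0.01 over all genes tested. By role, the calls were 0 higher and 2 lower among receptor chains and coreceptors, 0 and 0 among kinases, 1 and 0 among adaptors, 0 and 3 among effectors, and 1 and 4 among inhibitors. The level ranges of the genotypes did not overlap for 19 of the 33 genes, 5 higher and 14 lower in knockout libraries, and 45.3% of all tested genes had such ranges.

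**Figure D1:**
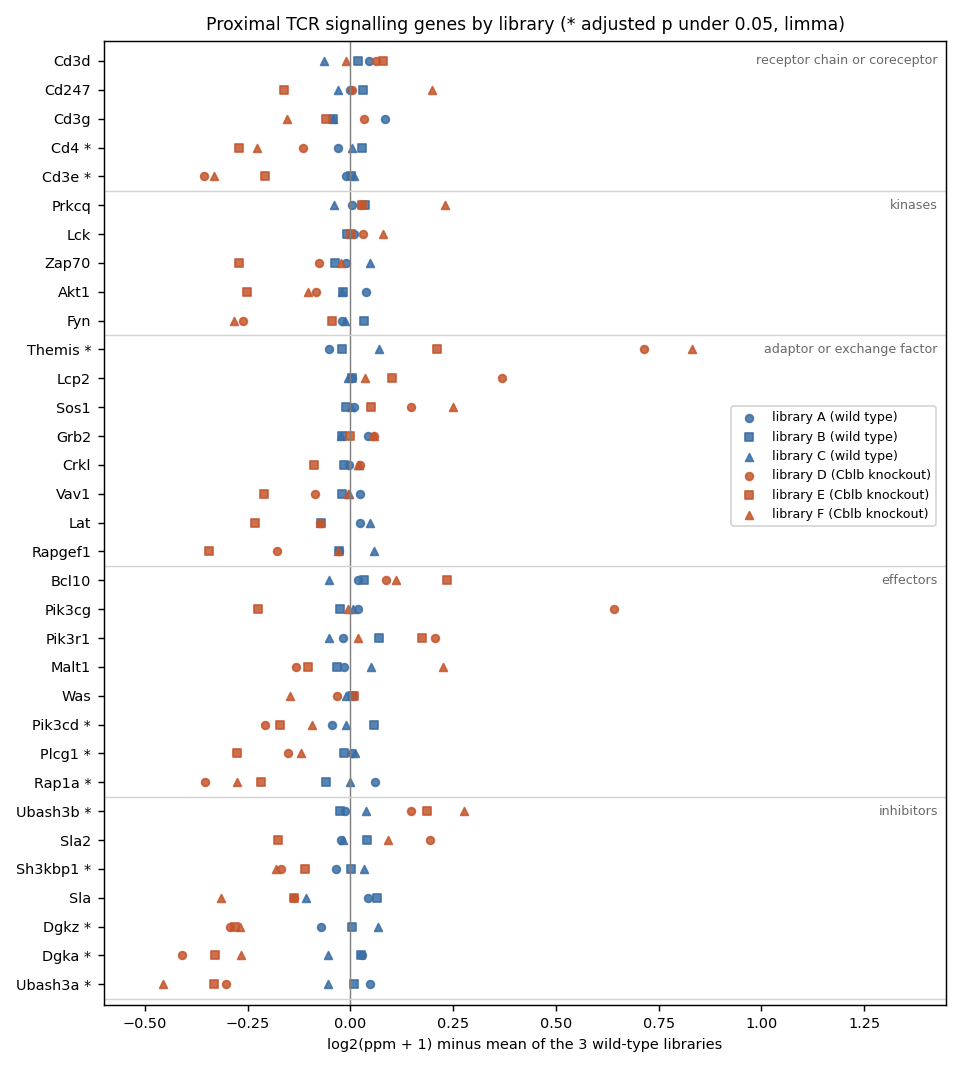
Level of each of the 33 genes in each library, as log2(ppm + 1) minus the mean of the 3 wild-type libraries (horizontal axis), with genes grouped by role on the vertical axis and an asterisk for an adjusted p under 0.05 in limma. Blue symbols are wild-type libraries A to C, orange symbols knockout libraries D to F; the inhibitors Dgka, Dgkz and Ubash3a have all 3 knockout libraries to the left of all wild-type ones, and Themis has them to the right, with library E nearest the wild type.

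Among the receptor chains, Cd3e, which encodes the CD3 epsilon chain, stood at 176, 178 and 179 ppm in wild-type libraries and at 139, 154 and 141 ppm in knockout libraries. The wild-type values lay close together and every knockout value was lower. The log2 difference was -0.30 (SE 0.05, adjusted p = 0.00536 by limma), and means were 178 ± 1.33 and 145 ± 8.10 ppm (SD, n = 3 each). The neighbouring CD3 genes had no call, and whether their differences were unlike that of Cd3e was not tested. Cd3d, for the delta chain, was at 459, 451 and 426 ppm in wild-type and 465, 470.0 and 442 ppm in knockout libraries, and these ranges overlapped (log2 difference 0.04, adjusted p = 0.501 by limma). Cd3g, for the gamma chain, was at 285, 261 and 261 ppm against 275, 258 and 241 ppm, again overlapping (log2 difference -0.06, adjusted p = 0.482 by limma). Cd247 encodes the zeta chain, which carries most of the receptor's phosphorylation motifs. Its levels were 82.1, 84.1 and 80.5 ppm in wild-type libraries, inside the knockout range of 82.4, 73.4 and 94.5 ppm (log2 difference 0.01, adjusted p = 0.916 by limma). Exons of Cd3e overlap those of the antisense gene Gm48719, and exons of Cd247 those of Pou2f1 on the other strand. The sources used here do not say whether counting used strand, so both genes' counts are uncertain to that extent. On the same strand, where strand cannot separate reads, exons of Cd247 overlap those of Gm16565. Exons of Lck and Lat likewise overlap Mir8119 and Mir7058.

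Cd4, the coreceptor that brings Lck to the receptor (chr6:124864692-124888221), was at 90.5, 94.3 and 92.7 ppm in wild-type and 85.3, 76.4 and 78.9 ppm in knockout libraries. All knockout libraries were below all wild-type libraries, and D was the nearest to them. The log2 difference was -0.20 (SE 0.05, adjusted p = 0.0224 by limma). The call was lost without A (adjusted p = 0.065 by limma), without B (0.0932), without C (0.0855) and without F (0.0527). The difference stayed between -0.25 and -0.17 in all 6 fits that left out 1 library.

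No kinase passed the test. Lck, the kinase that starts the cascade, was at 234, 231 and 232 ppm in wild-type and 237, 232 and 245 ppm in knockout libraries, a log2 difference of 0.04 (adjusted p = 0.489 by limma). Fyn, its relative, was at 93.6, 97.1 and 94.1 ppm against 79.0, 92.0 and 77.8 ppm. Libraries D and F were well below the wild type and E just below it, so the ranges did not overlap, but the difference of -0.20 did not pass (adjusted p = 0.0632 by limma). Without E it was -0.27, with an adjusted p of 0.0024 by limma. Zap70, which docks on the phosphorylated chains, was at 139, 136 and 145 ppm in wild-type and 133, 116 and 138 ppm in knockout libraries, and these overlapped (-0.12, adjusted p = 0.204 by limma). Prkcq, the diacylglycerol-activated protein kinase C theta, ranged from 58.7 to 61.9 ppm and from 61.5 to 71.0 ppm. Akt1, which acts downstream of phosphoinositide 3-kinase, ranged from 90.3 to 93.9 ppm in wild-type and from 76.7 to 86.3 ppm in knockout libraries, a log2 difference of -0.15 (adjusted p = 0.0805 by limma).

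Among adaptors, Themis rose. This gene (chr10:28668360-28883818) encodes an adaptor that binds Grb2 and sets signal strength in developing thymocytes. It stood at 14.9, 15.2 and 16.3 ppm in wild-type libraries and at 26.0, 18.1 and 28.3 ppm in knockout libraries. Libraries D and F were far above the wild type, and E lay only a little above it. Exons of Themis overlap those of 4930519F09Rik on the other strand. The log2 difference was 0.59 (SE 0.14, adjusted p = 0.0239 by limma), the largest in size among the 33 genes. The call ended when any library other than E was left out: the adjusted p by limma was 0.0863 without A, 0.0762 without B, 0.0711 without C, 0.0715 without D and 0.055 without F, and the difference ran from 0.46 without F to 0.77 without E.

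The other adaptors and exchange factors had no call. Lat, the membrane scaffold phosphorylated by Zap70, was at 343, 321 and 348 ppm in wild-type and 319.9, 287 and 320.1 ppm in knockout libraries, with ranges that only just failed to meet (-0.13, adjusted p = 0.134 by limma). Lcp2, which encodes SLP-76, was at 179.8, 179.8 and 179 ppm against 232, 192 and 184 ppm. All knockout libraries were above the wild type, but D alone was far above it (0.17, adjusted p = 0.16 by limma). Lcp2 shares exonic sequence with 4930469K13Rik on the other strand. Vav1, an exchange factor for Rac, Grb2 and Sos1, which link to Ras, Crkl, and Rapgef1, an exchange factor for Rap1, had log2 differences between -0.18 (Rapgef1) and 0.15 (Sos1). Exons of Rapgef1 overlap those of Gm9823 on the other strand. Without F, Rapgef1 had a difference of -0.26 (adjusted p = 0.0326 by limma), and without E, Sos1 had one of 0.20 (adjusted p = 0.0245 by limma).

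Of the 8 effectors, 3 fell. Rap1a (chr3:105727267-105801336), a small GTPase that activates integrins, was at 219.7, 202 and 211 ppm in wild-type and 165, 181 and 174 ppm in knockout libraries. The lowest wild-type library stood well above the highest knockout library. The log2 difference was -0.28 (SE 0.05, adjusted p = 0.0077 by limma). Plcg1 (chr2:160731300-160775760), the phospholipase that makes diacylglycerol and inositol trisphosphate, was at 33.1, 32.6 and 33.2 ppm against 29.6, 27.0 and 30.3 ppm, with all knockout libraries lower (-0.18, adjusted p = 0.0394 by limma). Pik3cd (chr4:149649168-149702571), the p110 delta catalytic subunit of phosphoinositide 3-kinase, was at 63.4, 68.1 and 65.0 ppm against 56.6, 58.0 and 61.3 ppm (-0.16, adjusted p = 0.0482 by limma). The Plcg1 and Pik3cd calls were weakly held. The Plcg1 adjusted p by limma was 0.129 without A, 0.117 without B, 0.132 without C and 0.0598 without D, and that of Pik3cd lay above 0.05 without any library except F (0.0344). Exons of Plcg1 also overlap those of Zhx3 and Gm27206 on the other strand.

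Bcl10 and Malt1, which form the complex that carries the signal to NF-κB, had no call. Bcl10 was at 43.9 to 46.7 ppm in wild-type and 48.4 to 53.8 ppm in knockout libraries, with no overlap (0.14, adjusted p = 0.0835 by limma). Malt1 was at 93.1, 92.1 and 97.5 ppm against 85.9, 87.6 and 110.3 ppm, so the knockout libraries lay on both sides of the wild type. Pik3r1, the p85 alpha regulatory subunit, ranged from 32.6 to 35.6 ppm and from 34.3 to 39.2 ppm, and without F its difference was 0.19 (adjusted p = 0.0448 by limma). Was, an activator of actin polymerization, and Pik3cg, another catalytic subunit, differed by -0.06 and 0.14, the latter with library D at 14.5 ppm and the other 5 libraries between 7.50 and 9.08 ppm.

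Inhibitors held 5 of the 11 calls, in opposite directions. Dgka (chr10:128720134-128744855) and Dgkz (chr2:91932824-91975864) encode diacylglycerol kinases, which remove diacylglycerol and so limit Ras and protein kinase C signals. Dgka was at 39.3, 39.2 and 37.1 ppm in wild-type and 28.7, 30.5 and 31.8 ppm in knockout libraries, a log2 difference of -0.34 (SE 0.05, adjusted p = 0.00536 by limma). Dgkz was at 69.5, 73.4 and 76.7 ppm against 59.5, 60.0 and 60.6 ppm, a difference of -0.28 (SE 0.05, adjusted p = 0.0061 by limma). For both genes every knockout library was below every wild-type library by a clear gap. Exons of Dgka overlap those of Pmel, and exons of Dgkz those of Gm9821, on the other strand.

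The Ubash3 pair moved apart. Ubash3a (Sts-2, chr17:31207873-31246892) and Ubash3b (Sts-1, chr9:41011098-41161697) are related proteins that bind CBL ligases and act on phosphorylated Zap70. Ubash3a was at 31.7, 30.8 and 29.5 ppm in wild-type and 24.7, 24.2 and 22.1 ppm in knockout libraries, with no overlap (-0.36, SE 0.06, adjusted p = 0.00535 by limma). Ubash3b was at 39.4, 39.1 and 40.9 ppm against 44.2, 45.4 and 48.4 ppm, also with no overlap and in the other direction (0.20, SE 0.05, adjusted p = 0.0211 by limma). The Ubash3b call was lost without A (adjusted p = 0.0879 by limma), without B (0.0942) and without C (0.0613).

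Sh3kbp1 (chrX:159627272-159978069) encodes CIN85, an adaptor that binds CBL proteins. It was at 43.2, 44.2 and 45.3 ppm in wild-type and 39.3, 40.9 and 38.9 ppm in knockout libraries, with all of the latter lower (-0.15, adjusted p = 0.0369 by limma). It kept its call without E only (adjusted p = 0.0154 by limma); without A, B, C, D or F the value lay between 0.0734 and 0.144. Sla, the Src-like adaptor that lowers receptor levels, was at 76.5, 77.6 and 68.7 ppm against 67.3, 67.4 and 59.4 ppm (-0.20, adjusted p = 0.0689 by limma). Library C lay close to D and E, and without E the difference was -0.23 (adjusted p = 0.0455 by limma). Sla2, its relative, was between 5.25 and 7.07 ppm in all libraries and differed by 0.04; its exons overlap those of Rab5if on the other strand. Of the 11 calls over all cells, 5 held in every fit that left out 1 library: Cd3e, Rap1a, Dgka, Dgkz and Ubash3a. Without A, B or C these were the 5 falls called, with 0 rises, and the calls over all genes tested were fewer too, going from 929 higher and 1139 lower to 459 and 408, 442 and 442, and 396 and 381.

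**Figure D2:**
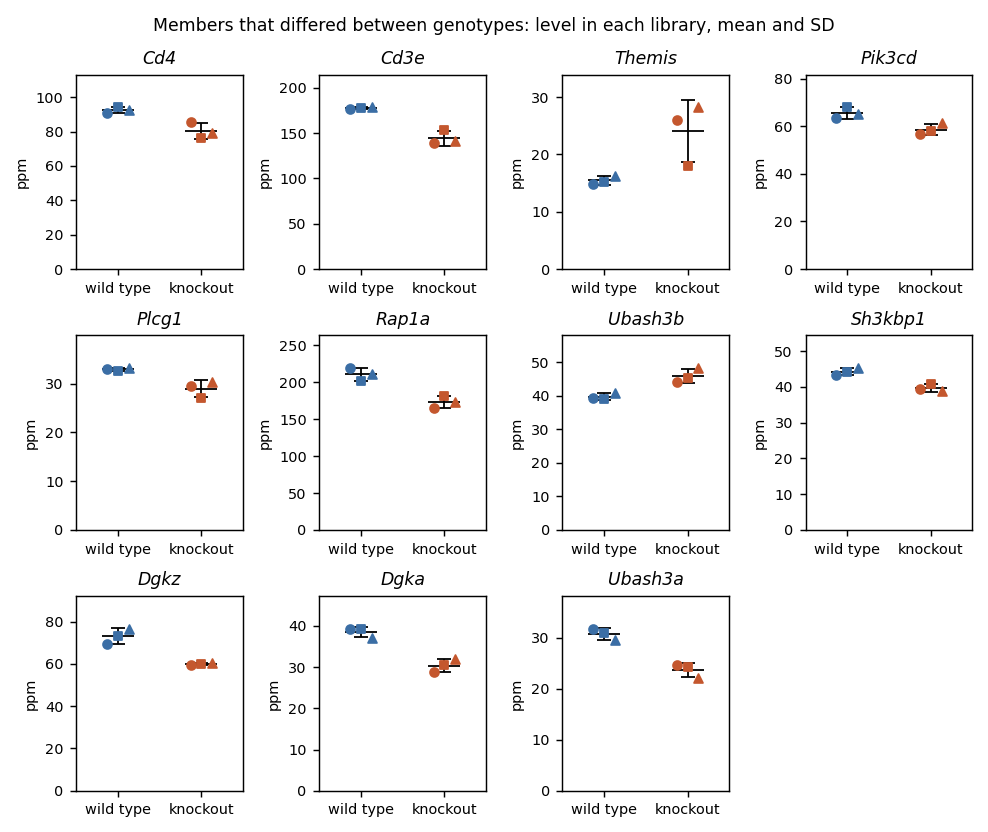
Level in ppm (vertical axis, from 0) of the 11 genes called over all cells, in the 3 wild-type (blue) and 3 knockout (orange) libraries, with black bars for the mean and SD (n = 3 each). No panel has overlapping genotypes; the knockout libraries of Themis spread from 18.1 to 28.3 ppm, and those of Dgkz from 59.5 to 60.6 ppm.

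Each of the 6 clusters was then given equal weight in every library, which evens out cluster shares but not differences within a cluster. This kept 9 of the 11 calls, with Ubash3b at 0.30 and Themis at 0.46. It lost the calls of Pik3cd and Sh3kbp1, whose differences were -0.15 and -0.13 against -0.16 and -0.15 over all cells. Within the clusters the libraries were compared in the same way, since each of clusters 0 to 5 had at least 50 cells in every library. The clusters had been made by the authors from the same cells' expression, so differences in level between clusters are a description. Cluster 0 had 3 genes higher and 11 lower, where 21.8% of all genes tested were called, 9.06% higher and 12.8% lower. Cluster 1 had 1 higher and 4 lower (18.8% of all genes called, 9.22% higher and 9.62% lower). Cluster 2 had 4 and 4 (20.1%, with 8.39% and 11.7%), and cluster 3 had 2 and 3 (8.39%, with 4.54% and 3.85%). Cluster 4 had 3 and 6 (12.8%, with 5.33% and 7.47%), and cluster 5 had 0 and 5 (9.58%, with 4.9% and 4.68%).

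Rap1a was called lower in all 6 clusters, by 0.22 to 0.33 on the log2 scale. Cd3e was called lower in 5 clusters, by 0.29 to 0.36 on the log2 scale, and its difference in cluster 2 was -0.13 with no call. Ubash3a was also called lower in 5, all but cluster 1, and Dgka in 4, with a difference of -0.03 in cluster 2. Ubash3b was called higher in 4, by up to 0.55 in cluster 3, where its levels were 49.0, 43.2 and 45.1 ppm in wild-type and 71.4, 62.3 and 69.4 ppm in knockout libraries. Themis was called higher in clusters 0 and 4, by 0.49 in each, and had positive differences with no call in the other 4. In all, 16 of the 33 genes had the same sign in all 6 clusters, and 13 were called in none. The matching shares over all genes tested were not computed, so these counts have no background. Some genes were called in single clusters without a call over all cells: Prkcq rose by 0.34 in cluster 4, Bcl10 rose by 0.25 in cluster 2 and 0.34 in cluster 3, Pik3r1 rose by 0.33 in cluster 0 and 0.23 in cluster 1, Akt1 fell by 0.22 in cluster 2, and Zap70 and Sla fell by 0.25 and 0.35 in cluster 0. Among the CD3 chains, Cd3g fell by 0.21 in cluster 0 and 0.32 in cluster 4, and Cd3d rose by 0.21 in cluster 2, where Lck rose by 0.26. Over the 6 clusters there were 13 higher and 33 lower calls. Without A, B, C or D the higher calls were 4, 5, 4 and 6, and without E they were 20. The lower calls were 13, 20 and 15 without A, B or C, and without a trend in limma's prior variance there were 7 higher and 16 lower.

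**Figure D3:**
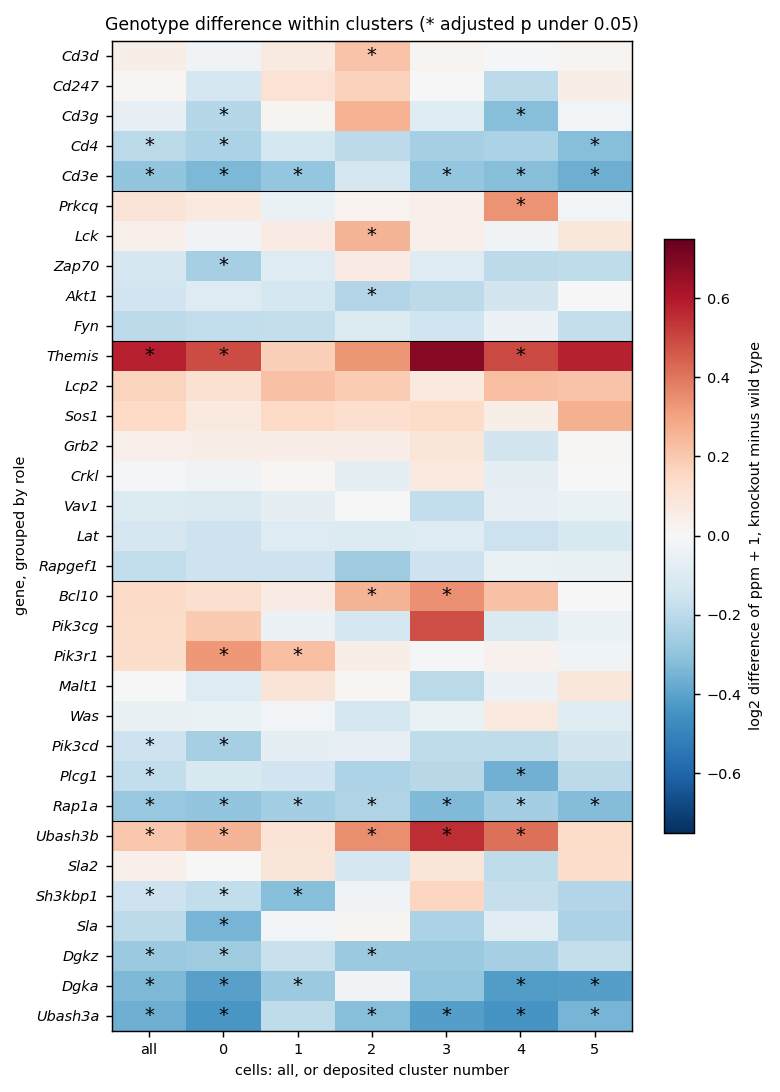
Log2 difference in ppm + 1, knockout minus wild type (colour, blue lower and red higher in knockout), for the 33 genes (rows, grouped by role) over all cells and in clusters 0 to 5 (columns); asterisks mark an adjusted p under 0.05 in limma. Rap1a is blue with an asterisk in every column, and Cd3g changes from blue in clusters 0 and 4 to red in cluster 2.

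Whether a genotype difference in a cluster differed from that in a library's other cells was tested directly. Those other cells were pooled over the remaining clusters, whose shares differed between genotypes, and the part of this in the contrasts was not tested. Of the 33 genes, 6 in cluster 0, 5 in cluster 1, 4 in cluster 2 and 2 in cluster 4 passed (limma, adjusted p under 0.05), against 4.06%, 2.92%, 6.39% and 2.94% of all genes tested. In clusters 3 and 5 there were 0 calls, with 4 and 2 of the 33 at an unadjusted p under 0.05 by limma and 0.0593% and 0.201% of all genes called. These 17 calls depended on the fit: there were 0 without a filter on low genes, 0 without a trend in limma's prior variance and 9 after quantile normalization. Leaving out A, B, C, D, E or F gave 5, 10, 4, 8, 33 and 14 calls.

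Cd3g showed the largest of these contrasts in cluster 2. In that cluster it was at 207, 194 and 180.2 ppm in wild-type and 269.9, 229.6 and 200.2 ppm in knockout libraries, so that only library F of the knockouts fell inside the wild-type range. Cd3g was not called there (0.26, adjusted p = 0.0768 by limma). In cluster 4 it was at 351, 306 and 335 ppm against 266, 272 and 256 ppm, and there every knockout library was lower. The genotype difference in cluster 2 minus that in the other cells was 0.32 (SE 0.05, adjusted p = 0.00187 by limma), and for cluster 4 it was -0.27 (SE 0.05, adjusted p = 0.00387 by limma). Lck behaved likewise in cluster 2, at 198, 180.4 and 192 ppm in wild-type and 226, 219 and 236 ppm in knockout libraries (0.22 against the other cells, adjusted p = 0.00109 by limma), and so did Cd3d (0.16, adjusted p = 0.00738 by limma). Zap70 passed the contrast too (0.16, adjusted p = 0.0481 by limma). Its levels in cluster 2 overlapped, at 95.3, 92.1 and 103 ppm in wild-type and 112, 86.3 and 106 ppm in knockout libraries (0.06, adjusted p = 0.673 by limma). Cells of cluster 2 were deeper in wild-type libraries, with medians of 42596 to 43894.5 raw UMIs, than in knockout libraries, with 37669 to 40920, and the part of this in the contrasts was not tested there. In cluster 1 the Themis difference was smaller than elsewhere, with levels of 11.7, 13.3 and 13.5 ppm against 15.5, 13.1 and 15.4 ppm (-0.37, adjusted p = 0.0352 by limma).

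Averaged over the 6 libraries, 16 of the 33 genes had their lowest level in cluster 2 and 18 their highest in cluster 4. The shares of all genes with such levels were not computed. In wild-type libraries, clusters 2 and 4 held the deepest cells, with medians of 42596 to 43894.5 and 40508.5 to 43755 raw UMIs. The part of depth in these levels was not tested. Cd3e ran from 116 ppm in cluster 2 to 199.8 ppm in cluster 4, Zap70 from 99.3 to 174 ppm and Prkcq from 45.2 to 83.7 ppm. Pik3r1 ran the other way, from 24.6 ppm in cluster 4 to 47.0 ppm in cluster 2, as did Malt1, from 90.5 to 112 ppm. Themis was lowest in cluster 1 (13.8 ppm) and highest in cluster 4 (29.8 ppm). Grb2 varied least, between 97.6 and 102 ppm.

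Cells rich in the transcript of the defining cytokine were then compared with cells in which it was listed at 0. Cells with a corrected Il9 count of at least 10 made up 10.4% to 15.3% of wild-type and 19.1% to 28.9% of knockout libraries, and cells with a count of 0 made up 49.1% to 58.5% and 13.1% to 36.5%. With the library as a block, 19 of the 33 genes were lower and 6 higher in Il9-high than in Il9-zero cells, and 8 were not called (limma, adjusted p under 0.05). Of all 8520 genes tested, 55.3% were called, 22.9% higher and 32.5% lower. The median log2 difference of the 33 genes was -0.15, against -0.02 over all genes tested. Of the 19 falls, 18 were seen in all 6 libraries, and of the 6 rises, 5. The matching shares over all called genes were not computed, and a call itself depends on agreement between libraries.

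Receptor chains and Cd4 were all lower in Il9-high cells, with log2 differences of -0.47 for Cd247, -0.46 for Cd3e, -0.32 for Cd3d, -0.32 for Cd3g and -0.11 for Cd4. Cd3e was at 132, 131 and 129 ppm in Il9-high wild-type cells and 191, 188 and 192 ppm in Il9-zero cells of the same libraries. In knockout libraries it was at 122, 118 and 113 ppm against 148, 164 and 152 ppm. The knockout was thus lower than the wild type in both kinds of cell. Of the kinases, Prkcq (-0.55), Zap70 (-0.50), Fyn (-0.24) and Lck (-0.19) fell, and Akt1 rose (0.24). The fall of Zap70 was from 153, 147 and 159 ppm to 101, 97.4 and 107 ppm in libraries A to C, and from 147, 126 and 148 ppm to 115, 89.8 and 112 ppm in D to F.

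Of adaptors and exchange factors, Themis (-0.46) and Sos1 (-0.15) fell, and Lat (0.10) and Rapgef1 (0.08) rose. Of effectors, Pik3r1 had the largest rise of the 33 genes (0.54, SE 0.03, adjusted p = 3.8e-08 by limma). It went from 29.8, 32.3, 28.8, 34.6, 32.8 and 29.0 ppm in Il9-zero cells of A to F to 42.7, 48.7, 42.0, 47.0, 48.9 and 44.6 ppm in Il9-high cells, with no overlap. Malt1 (0.31) and Was (0.09) rose too, whereas Bcl10 (-0.23), Pik3cd (-0.22), Pik3cg (-0.17) and Rap1a (-0.10) fell. Of inhibitors, Sla had the largest fall of the 33 genes (-0.59, SE 0.05, adjusted p = 1.2e-06 by limma). It went from 83.8, 85.7, 76.7, 74.5, 74.9 and 71.7 ppm in Il9-zero cells to 56.4, 55.5, 43.9, 58.6, 52.3 and 44.1 ppm in Il9-high cells. Sh3kbp1 (-0.50), Dgka (-0.44) and Ubash3b (-0.32) fell as well, and Dgkz, Ubash3a and Sla2 were not called. Rapgef1, Pik3cg and Was kept their calls in 3, 4 and 5 of the 6 fits that left out 1 library, and the other 22 calls were kept in all 6.

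**Figure D4:**
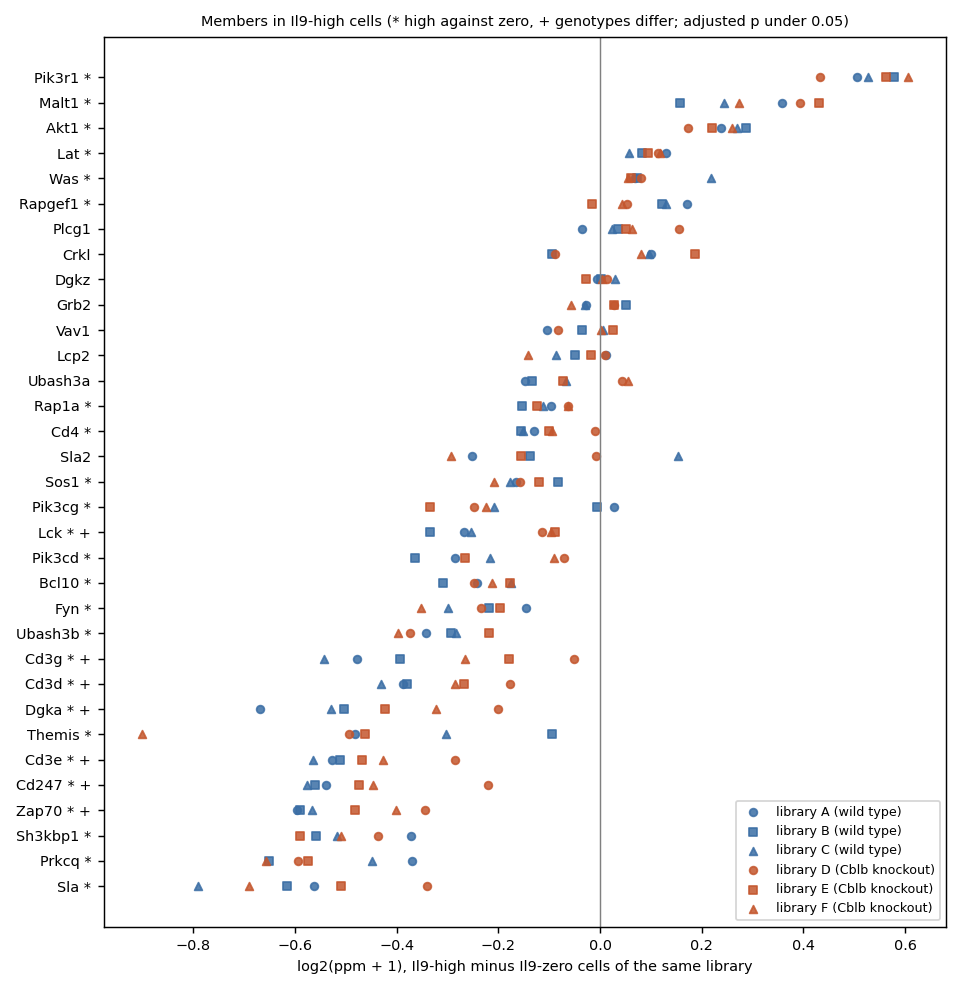
Log2(ppm + 1) in Il9-high cells minus that in Il9-zero cells of the same library (horizontal axis) for each of the 33 genes (vertical axis); blue symbols are wild-type and orange symbols knockout libraries, an asterisk marks a call for Il9-high against Il9-zero cells and a plus sign a difference between genotypes, both at an adjusted p under 0.05 in limma. Pik3r1 lies above 0.4 in every library, and for the 7 genes with a plus sign the knockout libraries lie nearer 0 than the wild-type ones on average.

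The size of the fall differed with genotype for 7 of the 33 genes, all with a smaller fall in the knockout, and 10.8% of all genes tested were called in this comparison. They were Cd3g, Cd3d, Cd3e, Cd247, Lck, Zap70 and Dgka. Cd3g went from 308, 269.6 and 279.5 ppm in Il9-zero wild-type cells to 221, 205 and 191 ppm in Il9-high cells, and from 279.5, 264 and 249 ppm to 269.6, 233 and 207 ppm in knockout cells. The mean differences were -0.47 in wild-type and -0.17 in knockout libraries, and they differed by 0.31 (SE 0.05, adjusted p = 0.00067 by limma). Lck went from 242, 239 and 240.1 ppm to 201, 189 and 201 ppm in wild-type cells, and from 245, 234 and 253 ppm to 226, 220.2 and 237 ppm in knockout cells. Those changes were -0.29 and -0.10, which differed by 0.19 (SE 0.03, adjusted p = 0.000673 by limma). For Dgka the changes were -0.57 and -0.32, for Cd3e -0.53 and -0.39, for Cd247 -0.56 and -0.38, for Zap70 -0.59 and -0.41, and for Cd3d -0.40 and -0.24.

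Depth moved with these groups: Il9-high cells had medians of 42185 to 43494 raw UMIs in wild-type and 36934 to 40422.5 in knockout libraries, and Il9-zero cells had 37997.5 to 39859 and 36930 to 44185. Among cells within 20% of the median raw total, the same comparison gave 4 calls in place of 7, Cd3d, Cd3g, Lck and Zap70, at 0.20, 0.31, 0.18 and 0.19. Among cells outside cluster 2, which held no Il9-zero cells, it gave 6, all of the 7 but Cd247. The count was 1 without a trend in limma's prior variance and 4 without a filter on low genes or without library D.

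Within single cells, Cd3d and Cd3g had the highest median correlation of the 528 pairs of the 33 genes. Across the cells of a library, Pearson's r of log2(corrected count + 1) was 0.386 to 0.433 for Cd3d and Cd3g over the 6 libraries and 0.286 to 0.322 for Cd3d and Cd3e. By the median over libraries, Lcp2 and Sla came next with 0.273 to 0.305, then Cd3e and Cd3g with 0.243 to 0.301, and Lcp2 and Malt1 with 0.116 to 0.272. The median pair had an r of 0.0229, and 22 pairs were above 0.1 in every library. Zap70 and Pik3r1 were the single pair below -0.1 in every library. These values are descriptions over 3423 to 5666 cells a library, and cells of a library share its culture, depth and mixture of clusters. The genes also differed in mean corrected count a cell, with 16.2 to 17.8 for Cd3d and 0.20 to 0.27 for Sla2. The part of this in r was not tested. Pairs of other genes were not computed, so the values of r have no background.

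**Figure D5:**
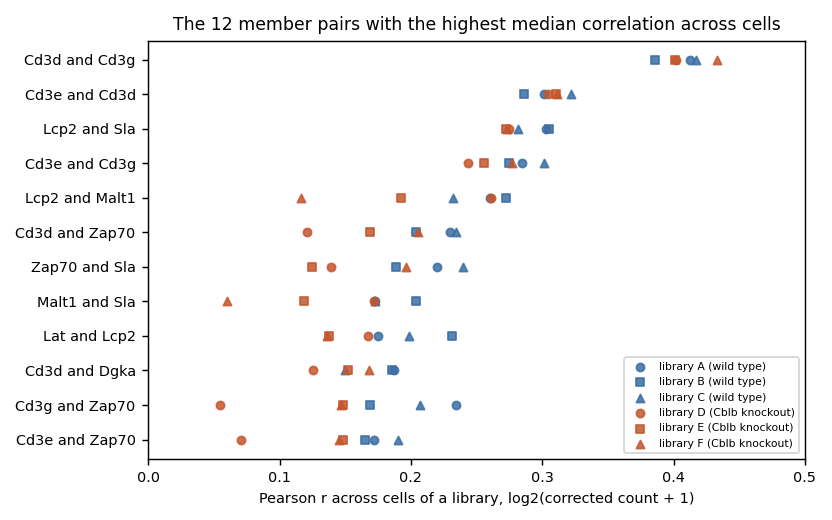
Pearson's r across the cells of a library (horizontal axis) for the 12 pairs of genes with the highest median r (vertical axis), with 1 symbol per library, blue for wild type and orange for knockout. Cd3d and Cd3g lie at 0.386 to 0.433 in all 6 libraries, apart from every other pair shown.

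Other genes of the pathway were taken from 6 lists of receptor partners, kinases and phosphatases, adaptors, lipid and calcium enzymes, GTPase and actin regulators, and ubiquitin ligases. Of 110 listed genes, 99 were tested, 16 were higher and 18 lower in the knockout, and 65 were not called, with a median log2 difference of 0.00. Over all genes tested, 11% were higher and 13.4% lower, with a median of -0.01. The counts of higher and lower calls were 2 and 4 of 14 receptor partners, 2 and 2 of 16 kinases and phosphatases, 3 and 3 of 17 adaptors, 4 and 3 of 21 lipid and calcium enzymes, 4 and 5 of 23 GTPase and actin regulators, and 1 and 1 of 8 ubiquitin ligases. Txk, a Tec-family kinase, fell from 7.99, 7.48 and 7.94 ppm to 4.96, 5.11 and 5.21 ppm (-0.53). Among the largest rises were those of Itpr1, a calcium channel of the endoplasmic reticulum (0.71), the ubiquitin ligase Nedd4 (0.71), the Rap exchange factor Rasgrp2 (0.66), Wipf1, a partner of Was (0.49), and the calcineurin subunit Ppp3ca (0.44). Among the largest falls were those of Lax1, an inhibitory membrane adaptor (-1.02), Cblb (-0.85), Txk, the lipid phosphatase Inpp4b (-0.43) and the adaptor Skap1 (-0.41).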

How the data were processed

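Single-cell RNA-seq was deposited for 6 samples, 3 of each genotype. The build mm10 and the tools Seurat 3.0.0 and Cell Ranger 3.0.2 are named in the submitters' processing notes, without their roles or any use of strand. Per the file headers, the deposited values of each gene and cell, score values here, are counts corrected by sctransform, which the authors brought to a common depth; count models therefore could not be applied. Beside them the authors deposited each cell's raw UMI count, the percent of mitochondrial UMIs and the cluster number, used as given. Cells had been filtered: no cell had fewer than 15006 raw UMIs or a mitochondrial share above 15.15 percent. No doublet caller was run, since it needs raw counts per gene. Of the cell barcodes, 76 occurred in more than 1 library. No 2 libraries were identical.

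Corrected counts were summed per library, scaled to 1000000 (ppm) and put on the log2(ppm + 1) scale. Genes whose mean over libraries reached 5 ppm were tested in limma 3.58.1 under R 4.3.3 (trended prior variance, two-sided), with Benjamini-Hochberg adjustment over all of them and a threshold of 0.05. Fold changes on this scale understate changes of low genes. The scripts were tested on simulated data, and their pass rule for finding changes covered only changes larger than those called among the 33 genes. Every one of the 33 genes is named; library values are given for those called and for the main receptor, kinase and adaptor genes, and beside them Cblb and up to 6 of the largest called differences in each direction over the pathway lists, of which some are not reported here. These genes, lists and tests were chosen with earlier results of these data known. Promoters are from RefSeq, in which 29 of the 33 genes had an entry. The alternatives were other pseudocounts, filters, scalings and priors, leaving out each library, cells of like depth and other Il9 limits. Comparing Il9 states in cells of like depth and outside cluster 2 was added after seeing the data.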

Additional observations from a re-analysis of the deposited data

Results flagged for a closer look

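For 12 of the 33 genes the difference between genotypes itself differed between kinds of cell, in 24 comparisons by limma with adjusted p under 0.05. Of all genes tested, 4.06%, 2.92%, 6.39% and 2.94% were called in clusters 0, 1, 2 and 4, and 10.8% by Il9 state. The 17 calls by cluster became 0 without a filter on low genes and 0 without a trend in the prior variance, and the 7 by Il9 state became 4 and 1. Values are log2 genotype differences (knockout minus wild type) in a cluster minus those in the other cells. In cluster 0 they were -0.13 for Zap70, -0.15 for Cd247, -0.0855 for Lck, -0.19 for Cd3g, -0.10 for Lcp2 and -0.22 for Sla. In cluster 1 they were 0.20 for Cd247, -0.37 for Themis, 0.17 for Cd3g, 0.23 for Ubash3a and 0.15 for Malt1. In cluster 2 they were 0.16 for Zap70, 0.22 for Lck, 0.32 for Cd3g and 0.16 for Cd3d, and in cluster 4 -0.22 for Cd247 and -0.27 for Cd3g. Cd3g was the gene with such a value in each of these 4 clusters. In cluster 1 itself its genotype difference was 0.02, with no call. The other cells were a different mixture of clusters in each genotype, and the part of this in the values was not tested. Between Il9-high and Il9-zero cells the genotype difference changed by 0.18 for Zap70, 0.18 for Cd247, 0.19 for Lck, 0.25 for Dgka, 0.31 for Cd3g, 0.16 for Cd3d and 0.14 for Cd3e.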

How the results depend on the processing

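Over all cells the counts of 2 genes higher and 9 lower kept within 1.5 times of these values under both pseudocounts, no filter, other scalings, no trend, means of log2 values and equal cluster weights. A filter at 20 ppm left 1 higher, since Themis lay under it, and cells within 20% of the median raw total gave 4. Median-of-ratios scaling added Akt1 and Rapgef1 as falls. The 13 higher and 33 lower calls within clusters became 7 higher without a filter, and 7 higher and 16 lower without a trend in the prior variance. The 17 calls of a genotype difference that differed by cluster became 0 without a filter, 0 without a trend and 9 after quantile normalization. The 7 calls by Il9 state became 4 without a filter, 1 without a trend and 4 among cells of like depth. The causes were not tested. Leaving out 1 library gave 0 to 3 higher and 5 to 10 lower over all cells, 4 to 20 higher and 13 to 33 lower within clusters, 4 to 33 by genotype and cluster, 4 to 6 higher and 18 to 20 lower in Il9-high cells, and 4 to 9 by genotype and Il9 state. Over all genes, leaving out E gave 1750 higher and 1396 lower calls, against 929 and 1139 with all libraries, and leaving out C gave 396 and 381. For single genes, 479 of 523 alternative values kept their call or lack of one, 35 lost the call and 9 gained one. Among the 479 were 16 uncalled values whose sign changed, and 0 called values changed sign. No paired analysis was possible because the library names carry no replicate number. The number of libraries, 3 a group, and the spread between knockout libraries limit the precision. For Sla2, the lowest of the 33 genes in level, the SE was 0.10 on the log2 scale. It was larger for Themis (0.14) and largest for Pik3cg (0.19).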
